A study of Mus musculus with 12 samples.

Results

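The IL-1 receptor family of regulatory T cells (Tregs) was followed through 6 genes, Il1r1, Il1r2, Il1rl1, Il18r1, Il18rap and Il1rap, taken by symbol from the 23352 gene symbols of the deposited expression tables. They are members by name, with no threshold on a measured value. The study asked what loss of Ezh2, the enzyme that places the repressive histone H3 lysine 27 methyl marks, does to resting and activated Tregs. Tregs of female C57BL/6 mice, taken from spleen and lymph nodes together, were divided by surface CD62L, a lymph node homing receptor that activated Tregs shed or switch off.

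Ezh2 KO cells came from mice with 2 floxed Ezh2 alleles (Foxp3YFP-Cre/Foxp3WT;Ezh2fl/fl), and gave a CD62Llo group of 3 libraries and a CD62Lhi group of 3. HET cells came from mice with 1 floxed allele (Foxp3YFP-Cre/Foxp3WT;Ezh2fl/+), and gave a CD62Llo group of 3 libraries and a CD62Lhi group of 2. The HET CD62Lhi library that the submitters set aside for low read counts lists all 6 genes at 0 and was left out. Every group therefore carried the Cre and at least 1 floxed Ezh2 allele, and no group without them was analysed here. Cre stood under Foxp3 on 1 of the 2 X chromosomes, so Tregs that use the other X chromosome carry no active Cre, and the labels do not say whether the sort took YFP+ cells only. Neither the ages nor whether libraries came from separate animals is stated in the labels, and p-values then measure a spread between libraries that may be technical.

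Values are FPKM, fragments per kilobase of transcript, scaled to the mapped fragments of the library, so transcript length and library depth are allowed for. Other differences between libraries are not, and some results changed under further normalization, as given below. The width of the deposited intervals implied depths between 8.04 M (KO CD62Llo replicate 1) and 29.8 M mapped fragments (KO CD62Lhi replicate 1), an estimate only. Ezh2 itself read 12.5, 16.8 and 14.4 FPKM in KO CD62Llo, 9.15, 11.5 and 11 in KO CD62Lhi, 18.2, 17.8 and 20.5 in HET CD62Llo, and 12.7 and 12.5 in HET CD62Lhi. It was thus lower in every KO library than in every HET library of the same fraction, without passing the test in either fraction (adjusted p = 0.113 in CD62Llo and 1 in CD62Lhi, limma), and a whole-gene value also counts exons outside the deleted part. Foxp3, the lineage factor of Tregs, averaged 84.2 to 91.8 FPKM in the 4 groups.

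IL-1 receptor family chains carry immunoglobulin-like domains outside the cell. Signalling members carry a TIR domain inside it, which recruits MyD88 and IRAK kinases and leads to NF-kB and MAP kinases. A binding chain takes the cytokine and an accessory chain joins it: IL-1R1 or ST2 (the product of Il1rl1, the IL-33 receptor) pairs with the shared accessory protein encoded by Il1rap, and the IL-18 receptor pairs Il18r1 with Il18rap. Il1r2 encodes a decoy that binds IL-1 and has no TIR domain. In Tregs, ST2 is known from tissue and IL-33-responsive cells, IL-18 receptor from type 1 and intestinal cells, and IL-1R2 from activated Tregs.

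5 of the 6 genes lie in 1 receptor cluster on mouse chromosome 1, and Il1rap lies on chromosome 16. In GENCODE vM21 on GRCm38, the mm10 assembly that the files use, the cluster covers chr1:40074079-40551705, 478 kb, all on the plus strand, and holds 6 protein-coding genes in the order Il1r2 (chr1:40074079-40125231), Il1r1 (chr1:40225080-40317257), Il1rl2, Il1rl1 (chr1:40429570-40465415), Il18r1 (chr1:40465552-40500854) and Il18rap (chr1:40515362-40551705). Il1rap spans chr16:26581704-26730117, also on the plus strand. Only 136 bases separate the annotated end of Il1rl1 and the start of Il18r1. Antisense genes overlap Il1r2 (Gm16894) and Il1rap (Gm20319), and the sources used here do not say whether strand was used in counting, so reads of those pairs cannot be told apart. The files' Il1rl1 value is for the whole gene and does not part membrane ST2 from its soluble form.

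The 250 bases before the RefSeq start (GRCm38.p6, plus strand) are shown for 3 of the 4 receptor genes that fell in KO CD62Llo cells, without Il1r1. They are also shown for Il1rap, which did not pass the test in any comparison. CG dinucleotides are in capitals because CG-rich promoters are the kind that Polycomb complexes are known to occupy. Whether CG content bears on the receptor differences was not tested. The windows are Il1r2 at chr1:40085843-40086092, Il18r1 at chr1:40465302-40465551, Il18rap at chr1:40515112-40515361 and Il1rap at chr16:26581455-26581704.
Il1r2: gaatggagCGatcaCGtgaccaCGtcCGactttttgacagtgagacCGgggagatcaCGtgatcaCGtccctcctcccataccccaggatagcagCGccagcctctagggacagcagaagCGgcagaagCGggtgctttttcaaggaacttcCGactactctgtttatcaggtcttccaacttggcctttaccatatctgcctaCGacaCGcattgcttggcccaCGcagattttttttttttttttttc
Il18r1: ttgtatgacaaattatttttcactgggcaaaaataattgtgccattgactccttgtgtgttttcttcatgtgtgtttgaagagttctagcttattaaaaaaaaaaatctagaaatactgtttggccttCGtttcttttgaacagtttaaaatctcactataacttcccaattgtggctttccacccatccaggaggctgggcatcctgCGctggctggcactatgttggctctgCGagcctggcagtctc
Il18rap: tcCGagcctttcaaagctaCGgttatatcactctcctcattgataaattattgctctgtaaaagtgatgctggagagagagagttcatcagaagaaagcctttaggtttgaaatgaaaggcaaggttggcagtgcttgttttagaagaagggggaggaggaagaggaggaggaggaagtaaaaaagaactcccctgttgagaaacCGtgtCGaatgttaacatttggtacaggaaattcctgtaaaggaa
Il1rap: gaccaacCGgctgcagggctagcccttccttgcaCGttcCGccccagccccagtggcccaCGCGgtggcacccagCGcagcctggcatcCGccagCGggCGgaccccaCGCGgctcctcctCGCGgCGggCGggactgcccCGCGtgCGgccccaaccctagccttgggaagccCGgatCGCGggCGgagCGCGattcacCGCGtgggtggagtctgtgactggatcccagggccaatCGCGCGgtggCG
Over 300 bases, with the 50 after the start added, the Il1rap window held 33 CG, more than 91.4% of 32851 RefSeq mouse promoters, and Il1r2 held 16, more than 67%. The IL-18 receptor genes held 5 (Il18r1) and 4 (Il18rap), Il1r1 held 5 and Il1rl1 held 3, each below the median of 7. These are the windows nearest to the start of the files' locus, with a start site 1326 bases from it for Il1r2. RefSeq has further ones, with 14 CG for Il1r1, 7 and 8 for Il18r1 and 1 for Il1rl1. The AP-1 letters TGANTCA, searched on both strands, were in none of the 6 nearest windows and in 7.81% of all promoters. The GATA letters AGATAA and the forkhead letters TGTTTAC were each in the Il1rl1 window alone of the 6, against 11.2% and 3.65% of all promoters, and an NF-kB motif in the Il1rap window alone, against 20.7%. The RUNX letters TGTGGTT were in the Il18rap window alone of the 6, after the start, against 5.27% of all promoters, and also in a further Il18r1 window. A match describes letters only.

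Il1r2, the decoy receptor, had the widest range of the 6. It read 12.1, 12.7 and 15.4 FPKM in KO CD62Llo libraries, 1.06, 0.954 and 2.32 in KO CD62Lhi, 31.2, 48.7 and 34.0 in HET CD62Llo, and 2.25 and 2.36 in HET CD62Lhi. Every CD62Llo library stood above every CD62Lhi library, and every HET CD62Llo library stood above every KO CD62Llo library, with no overlap. Group means were 13.4 ± 1.75 FPKM in KO CD62Llo, 1.45 ± 0.761 in KO CD62Lhi, 38.0 ± 9.44 in HET CD62Llo (SD, n = 3 each) and 2.31 ± 0.0773 in HET CD62Lhi (SD, n = 2). Means thus stood 9.29-fold higher in CD62Llo than in CD62Lhi cells of KO mice and 16.5-fold higher in those of HET mice, and the KO CD62Llo mean was 35.4% of the HET CD62Llo mean. For 5 of the 6 CD62Llo libraries the deposited Il1r2 FPKM lies above the deposited upper interval bound, and no label explains it. The same holds for 12.1% to 30.8% of the entries above 1 FPKM in the libraries used. Set by the Il1r2 upper bounds alone, the order stays: 13.3, 12.7 and 14.9 FPKM in KO CD62Llo against 29.9, 44.9 and 31.9 in HET CD62Llo.

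Il1r1, the signalling IL-1 receptor, had the same order of group means as Il1r2 at a lower level. It read 0.935, 0.759 and 0.978 FPKM in KO CD62Llo, 0.0288, 0.0311 and 0.0283 in KO CD62Lhi, 1.81, 2.50 and 4.88 in HET CD62Llo, and 0.135 and 0.0672 in HET CD62Lhi. Groups did not overlap in any of the 4 comparisons, but only the HET CD62Llo libraries reached 1 FPKM, so the gene entered the test through that group alone. The KO CD62Lhi values are close to the detection limit, with deposited upper bounds of 0.0534, 0.0576 and 0.0659 FPKM. The KO CD62Llo mean of 0.891 ± 0.116 FPKM was 29.1% of the HET CD62Llo mean of 3.06 ± 1.61 (SD, n = 3 each). The decoy exceeded the signalling receptor in all 11 libraries. The ratio of Il1r2 to Il1r1 was 13, 16.8 and 15.8 in KO CD62Llo against 17.2, 19.5 and 6.96 in HET CD62Llo, groups that overlap (log2 difference 0.19 ± 0.482 SE, two-sided exact permutation p = 1).

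Il1rl1, which encodes ST2, was a low and variable transcript. It read 0.95, 0.465 and 1.60 FPKM in KO CD62Llo, 1.55, 0.533 and 0.715 in KO CD62Lhi, 3.35, 1.64 and 3.47 in HET CD62Llo, and 2.08 and 1.01 in HET CD62Lhi. The 2 fractions overlapped in both genotypes. Every HET CD62Llo library stood above every KO CD62Llo library, by the small gap between 1.64 and 1.60 FPKM, and the KO CD62Llo mean of 1.0 ± 0.568 FPKM was 35.6% of the HET CD62Llo mean of 2.82 ± 1.02 (SD, n = 3 each). The spread within a group was wide: 0.465 to 1.60 FPKM in KO CD62Llo, against 23.8 to 29.5 for its neighbour Il18r1 in the same libraries.

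Il18r1, the IL-18 binding chain, was the most abundant of the 6 genes in all 4 groups. It read 24.3, 23.8 and 29.5 FPKM in KO CD62Llo, 15.9, 14.6 and 14.9 in KO CD62Lhi, 50.0, 46.7 and 56.3 in HET CD62Llo, and 16.3 and 16.2 in HET CD62Lhi. The CD62Lhi values of the 2 genotypes lay between 14.6 and 16.3 FPKM, and the CD62Llo values of the 2 genotypes were separated by the gap between 29.5 and 46.7 FPKM. Means were 25.9 ± 3.17 FPKM in KO CD62Llo and 51.0 ± 4.92 in HET CD62Llo (SD, n = 3 each), so the KO mean was 50.7% of the HET mean. The CD62Llo mean stood 1.71-fold above the CD62Lhi mean in KO cells and 3.13-fold above it in HET cells.

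Il18rap, the IL-18 accessory chain, had a larger relative difference at a lower level. It read 1.59, 1.53 and 1.87 FPKM in KO CD62Llo, 0.549, 0.663 and 0.788 in KO CD62Lhi, 5.49, 6.36 and 5.17 in HET CD62Llo, and 0.984 and 0.848 in HET CD62Lhi. No group overlapped another. The gene reached 1 FPKM in CD62Llo libraries only, and so entered the test through them. The KO CD62Llo mean of 1.66 ± 0.182 FPKM was 29.4% of the HET CD62Llo mean of 5.67 ± 0.616 (SD, n = 3 each), and the CD62Llo mean was 2.50-fold the CD62Lhi mean in KO cells and 6.19-fold in HET cells.

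Il1rap, the accessory chain shared by IL-1R1 and ST2, was nearly level. It read 3.67, 4.4 and 3.71 FPKM in KO CD62Llo, 3.52, 3.70 and 4.14 in KO CD62Lhi, 4.32, 4.23 and 4.55 in HET CD62Llo, and 3.55 and 4.03 in HET CD62Lhi. All 11 libraries lay between 3.52 and 4.55 FPKM. The KO CD62Llo mean was 89.9% of the HET CD62Llo mean. In CD62Lhi cells of both genotypes, Il1rap stood above Il1r1 and Il1rl1, the binding chains it serves, in every library, and in KO CD62Llo cells too, while in HET CD62Llo cells its range overlapped that of Il1r1.

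**Figure D1:**
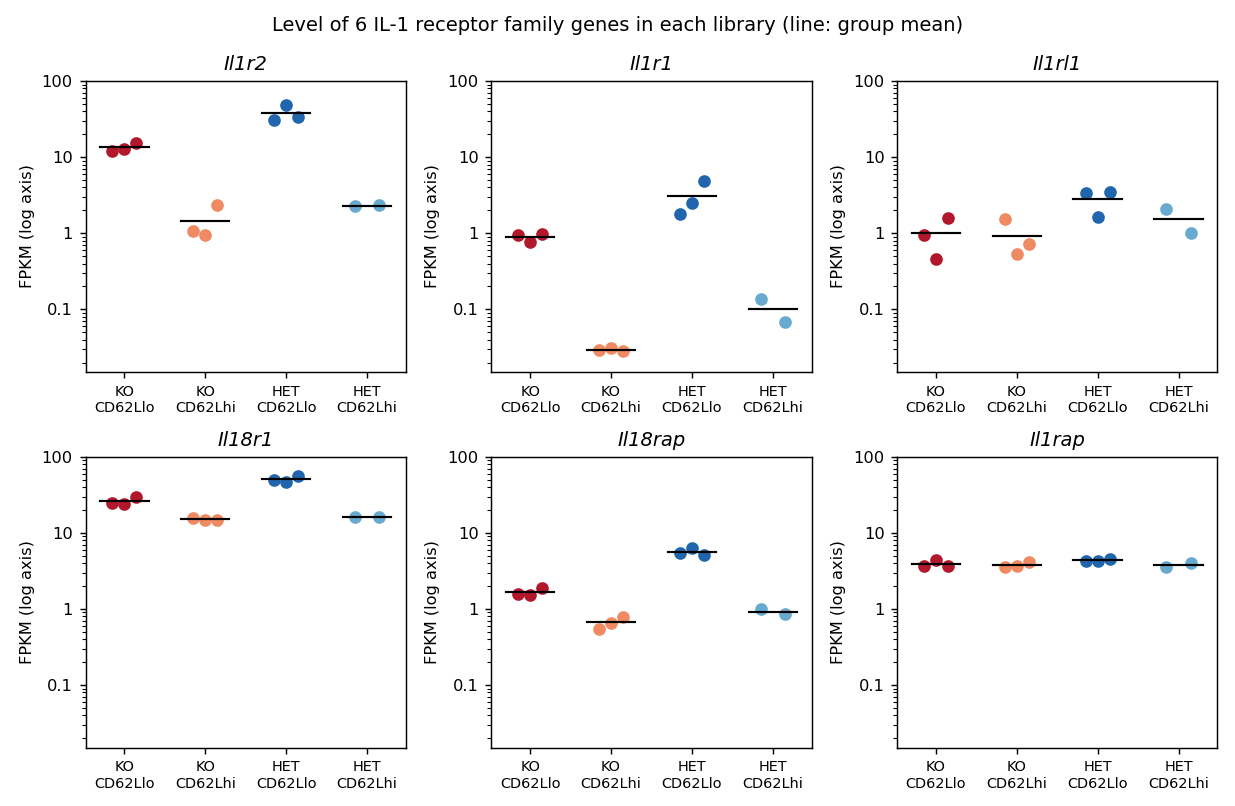
FPKM of each receptor gene in the 11 libraries (log axis, the same in all panels), by group, with 1 point per library and a line at the group mean. Il18r1 is highest in all groups, Il1r2 spans 0.954 to 48.7 FPKM, and Il1rap stays between 3.52 and 4.55 FPKM.

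The order of levels changed with the fraction. In both CD62Lhi groups Il18r1 was followed by Il1rap, then Il1r2, with Il1r1 last. In both CD62Llo groups Il1r2 came second, and in HET CD62Llo its highest library (48.7 FPKM) overlapped the lowest Il18r1 library (46.7 FPKM). In KO CD62Llo, Il18rap, Il1rl1 and Il1r1 followed Il1rap, and neighbours in that trio overlapped. In HET CD62Llo, Il18rap stood above Il1rap, and the ranges of Il1rap, Il1r1 and Il1rl1 overlapped from 1 neighbour to the next.

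Between fractions of KO cells, 4 of the 6 genes rose in CD62Llo, against 11.9% of all 11431 genes tested. 2 of the 4, Il1r1 and Il18rap, passed the filter through CD62Llo libraries only, here and in HET cells, so their direction in the count is not independent of the filter. Groups did not overlap for those 4, against 24.3% of all genes with separated groups in that direction. In log2(FPKM + 1), where the pseudocount shrinks the differences of low genes, the difference was 2.60 ± 0.22 for Il1r2 (SE, adjusted p = 0.000103, limma), 0.73 ± 0.09 for Il18r1 (adjusted p = 0.000717), 0.68 ± 0.095 for Il18rap (adjusted p = 0.00149) and 0.88 ± 0.22 for Il1r1 (adjusted p = 0.0256). The Il1r1 call was lost whenever any 1 of the 6 KO libraries was left out, at adjusted p of 0.0586 to 0.0727. Il1rl1 (0.05 ± 0.30) and Il1rap (0.04 ± 0.08) did not pass, and both had overlapping groups. Il1r2 ranked at place 25 from the top of the 11431 genes by this difference.

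Between fractions of HET cells, 4 of the 6 genes rose in CD62Llo, against 18.8% of all genes tested. Groups were separated for 5 of the 6, against 36.1% of all genes in that direction. The difference was 3.53 ± 0.24 for Il1r2 (SE, adjusted p = 1.61e-05, limma), 1.8 ± 0.11 for Il18rap (adjusted p = 8.86e-06), 1.59 ± 0.10 for Il18r1 (adjusted p = 1.25e-05) and 1.81 ± 0.25 for Il1r1 (adjusted p = 0.000638). These are the 4 genes called between KO fractions too. Il1rl1 (0.58 ± 0.33, adjusted p = 0.23) had overlapping groups, and Il1rap (0.17 ± 0.09, adjusted p = 0.201) had separated groups but did not pass. Il1r2 again stood at place 25 of 11431.

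Between genotypes, 4 of the 6 genes fell in KO CD62Llo cells relative to HET CD62Llo cells, against 3.25% of all genes tested that fell. Groups were separated for 5 of the 6, against 13.7% of all genes in that direction. The difference was -1.41 ± 0.22 for Il1r2 (SE, adjusted p = 0.00879, limma), -1.32 ± 0.095 for Il18rap (adjusted p = 0.000644), -0.95 ± 0.09 for Il18r1 (adjusted p = 0.00172) and -1.03 ± 0.22 for Il1r1 (adjusted p = 0.0323). Counted from the gene lowered most, they stood at places 62 (Il1r2), 68 (Il18rap), 99 (Il18r1) and 88 (Il1r1) of 11431. This comparison shares its KO and HET CD62Llo libraries with the comparisons between fractions. Of the 4, Il1r1 passed the filter through HET CD62Llo alone, so its part in the count is not independent of its direction. Il1r1 lost its call without HET CD62Llo replicate 2 (adjusted p = 0.0804) and without KO CD62Llo replicates 1, 2 or 3 (adjusted p = 0.0986, 0.0691 and 0.0752).

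Il1rl1 differed by -0.93 ± 0.30 in the same comparison, close to the difference of Il18r1 (-0.95) with a larger SE, and did not pass (adjusted p = 0.125). With the replicate number as a block, its adjusted p was 0.0231 and 5 of the 6 genes were called; the range over the alternatives tried was 0.0231 to 0.279. Il1rap differed by -0.13 ± 0.08 (adjusted p = 0.438), with overlapping groups. In bulk RNA, fewer cells that use a receptor and less receptor RNA per cell cannot be told apart, here and in the other comparisons.

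In CD62Lhi cells none of the 6 genes passed the test between KO and HET, and 0% of the 11431 genes tested did (328 at an unadjusted p under 0.05, none of them among the 6). The differences were -0.48 ± 0.24 for Il1r2, -0.40 ± 0.33 for Il1rl1, -0.20 ± 0.11 for Il18rap, -0.10 ± 0.25 for Il1r1, -0.10 ± 0.10 for Il18r1 and 0.00 ± 0.09 for Il1rap (SE, limma). Il18rap, Il18r1 and Il1r1 had separated groups, each lower in all KO libraries, against 14.4% of all genes, with gaps such as that between 0.788 FPKM in KO and 0.848 FPKM in HET for Il18rap.

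On the log2(FPKM + 1) scale the difference between fractions was smaller in KO than in HET cells for all 6 genes, but this contrast of contrasts called none of them, against 1 of 11431 genes, 0.00875%. At an unadjusted p under 0.05 there were 4 of the 6, against 868 of all 11431 genes. Il1r1 passed the filter through HET CD62Llo alone and Il18rap through CD62Llo libraries only. Their direction in this contrast is therefore not independent of the filter. As a fold of FPKM means, Il1r1 did not differ in this way: CD62Llo over CD62Lhi was 30.3 in KO and 30.3 in HET cells, on CD62Lhi values near the detection limit. The KO difference minus the HET difference was -1.12 ± 0.14 for Il18rap (SE, adjusted p = 0.0771, limma), -0.85 ± 0.14 for Il18r1 (adjusted p = 0.134), -0.93 ± 0.32 for Il1r2 (adjusted p = 0.514) and -0.94 ± 0.33 for Il1r1 (adjusted p = 0.527). In FPKM, the gap between fraction means in KO cells was 33.6% of the gap in HET cells for Il1r2, 31.0% for Il18r1, 29.1% for Il1r1 and 21.0% for Il18rap.

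**Figure D2:**
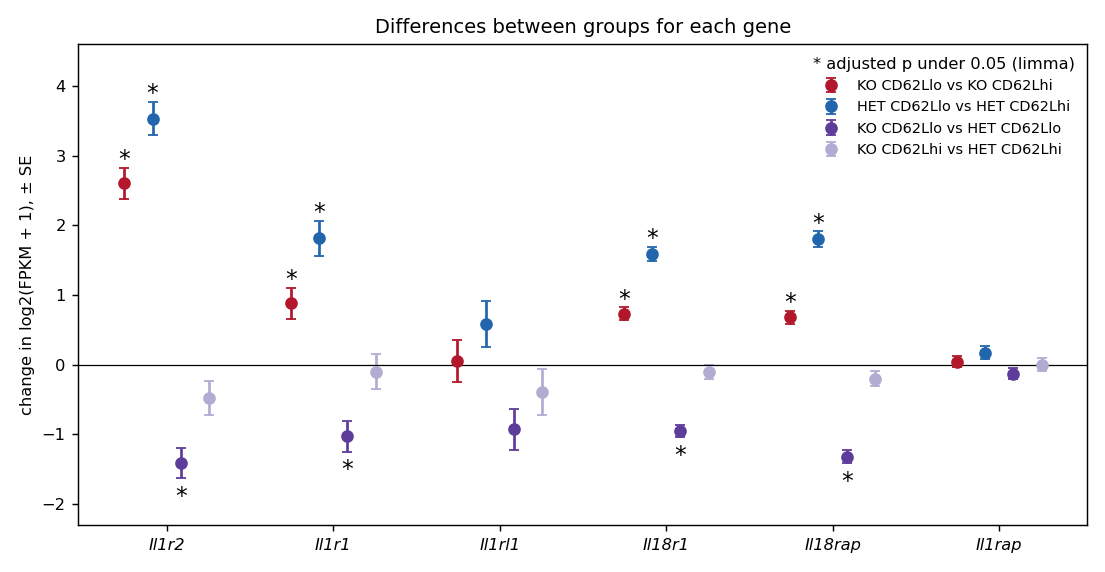
Differences in log2(FPKM + 1) for each receptor gene in 4 comparisons, with SE bars from limma and an asterisk at adjusted p under 0.05. Il1r2, Il1r1, Il18r1 and Il18rap are higher in CD62Llo than CD62Lhi in both genotypes and lower in KO than HET CD62Llo, and no gene has an asterisk between KO and HET CD62Lhi.

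The ratio of the 2 IL-18 receptor chains was compared in each library. Il18r1 over Il18rap was 15.3, 15.5 and 15.8 in KO CD62Llo, 28.9, 22.0 and 18.9 in KO CD62Lhi, 9.10, 7.34 and 10.9 in HET CD62Llo, and 16.6 and 19.1 in HET CD62Lhi. KO CD62Llo libraries stood near the HET CD62Lhi libraries, and HET CD62Llo libraries stood below all others. On the log2 scale the ratio was higher by 0.79 ± 0.166 in KO than in HET CD62Llo (SE; two-sided exact permutation p = 0.1, the smallest that 3 against 3 allows; adjusted p = 0.25 over 5 ratio comparisons). KO CD62Llo differed from KO CD62Lhi by -0.56 ± 0.179 (exact permutation p = 0.1, adjusted p = 0.25), and HET CD62Llo differed from HET CD62Lhi by -0.99 ± 0.194 (exact permutation p = 0.2, the smallest that 3 against 2 allows; adjusted p = 0.333). KO and HET CD62Lhi overlapped (0.36 ± 0.206, exact permutation p = 0.4, adjusted p = 0.5). With this permutation test, unlike the fit across all genes, groups of these sizes cannot reach 0.05.

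**Figure D3:**
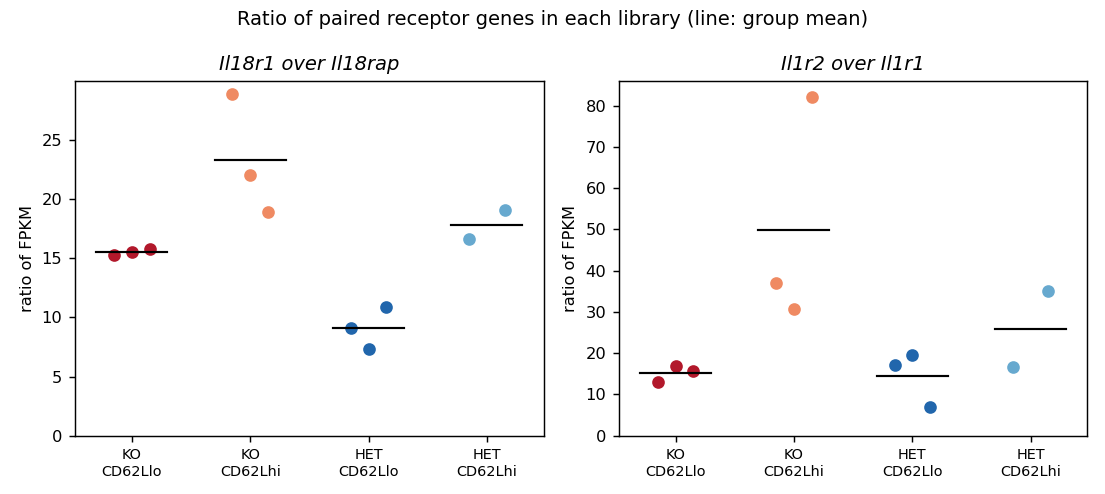
Ratio of FPKM in each library for the IL-18 receptor chains and for the decoy over the signalling IL-1 receptor, by group, with a line at the mean of the ratios; both axes start at 0. Il18r1 over Il18rap is 15.3 to 15.8 in KO CD62Llo and 7.34 to 10.9 in HET CD62Llo, and the Il1r2 over Il1r1 ratios of the CD62Lhi groups rest on Il1r1 values of 0.135 FPKM or less.

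Within the chromosome 1 cluster, Il1rl2, which encodes the IL-36 receptor, did not pass in any of the 5 comparisons. It averaged 1.18 ± 0.159 FPKM in KO CD62Llo, 1.07 ± 0.119 in KO CD62Lhi, 1.12 ± 0.232 in HET CD62Llo (SD, n = 3 each) and 0.714 ± 0.146 in HET CD62Lhi (SD, n = 2). It lies between Il1r1 and Il1rl1, and between KO and HET CD62Llo it differed by 0.05 ± 0.11 (SE, adjusted p = 0.86, limma). Of 12 listed genes flanking the cluster, 5 were tested, and none was called between KO and HET CD62Llo. In that comparison 3.25% of all genes tested fell, so no call among 5 genes is near that share. Rnf149, a ubiquitin ligase gene before the cluster, rose in CD62Llo cells of KO mice (0.68) and HET mice (0.85), and averaged 22.8 ± 3.02 FPKM in KO and 24.7 ± 2.41 in HET CD62Llo (SD, n = 3 each). Map4k4, a kinase gene flanking the cluster, fell by 0.33 in CD62Llo cells of HET mice (adjusted p = 0.00473, limma) and differed by -0.18 in KO mice (adjusted p = 0.0632).

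**Figure D4:**
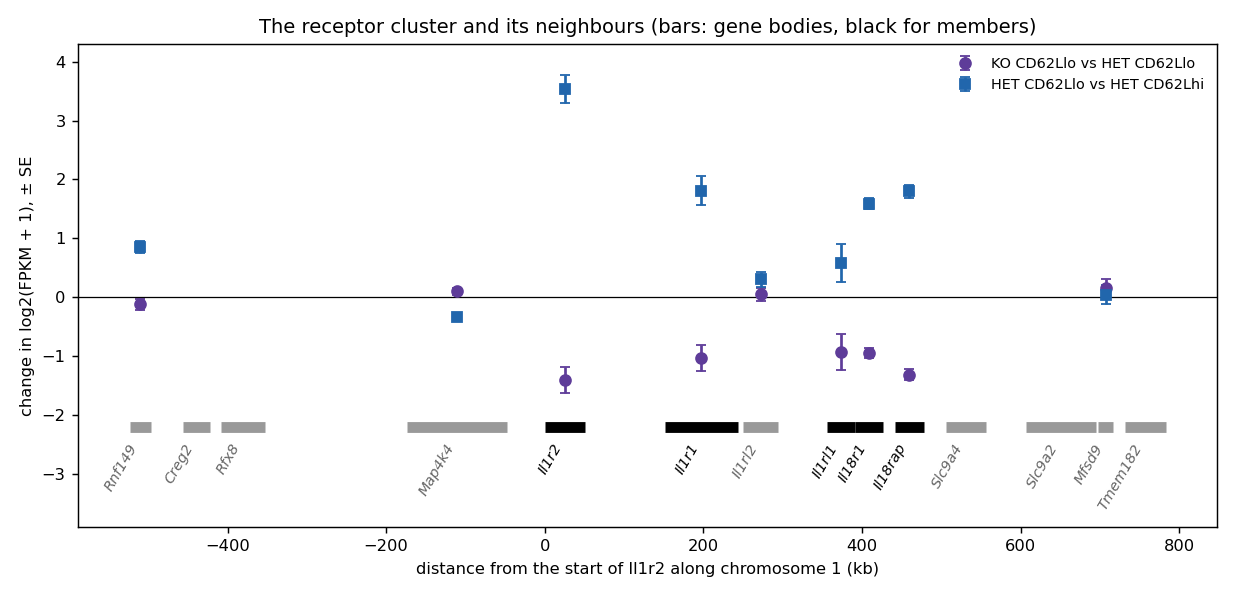
Differences in log2(FPKM + 1) with SE bars from limma, plotted at the middle of each tested gene, against distance from the start of Il1r2 on chromosome 1 in kb; bars show gene bodies, black for the 5 receptor genes described. Il1rl2, inside the cluster, and the tested flanking genes drawn lie near 0 between KO and HET CD62Llo, and the 5 receptor genes lie between -1.41 and -0.93.

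Of the other family receptors, Sigirr, a single-domain receptor known to restrain IL-1 family signalling, was abundant, at 62.3 ± 5.02 FPKM in KO CD62Llo, 51.4 ± 4.32 in KO CD62Lhi, 62.7 ± 6.94 in HET CD62Llo (SD, n = 3 each) and 54.6 ± 4.06 in HET CD62Lhi (SD, n = 2). It stood above Il18r1 in every library and did not pass in any of the 5 comparisons. With the replicate number as a block, 1 of the 2 tested genes Il1rl2 and Sigirr was called between fractions in KO cells and 1 in HET cells.

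Most of the listed cytokines and soluble antagonists of the family did not reach the filter in the sorted cells, and Il18bp had the highest group means among them. Of 15 listed names 11 were in the files and 3 passed the filter (Il18, Il18bp and Il1f9), and none of the 3 was called in any comparison. Of all genes, 11.9% (KO) and 18.8% (HET) rose between fractions and 3.25% fell between KO and HET CD62Llo. A count of 0 of 3 is near these shares. Between KO fractions 2 of the 3 were called without KO CD62Llo replicate 3, and with no filter on low values 1 of the list was called between fractions in each genotype. Il18bp, which encodes the soluble IL-18 antagonist, averaged 7.17 ± 3.65 FPKM in KO CD62Llo, 4.19 ± 0.387 in KO CD62Lhi, 4.6 ± 0.0894 in HET CD62Llo (SD, n = 3 each) and 3.59 ± 0.404 in HET CD62Lhi (SD, n = 2). Il33, the ST2 ligand, did not pass the filter, and its highest group mean was 0.0266 FPKM.

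Of 22 shared signalling genes downstream of the receptors 21 were tested, and between KO and HET CD62Llo none was called (median difference 0.00, against -0.03 for all genes tested), or 1 without KO CD62Llo replicate 2. In that comparison 3.25% of all genes tested fell, so no call among 21 genes is near that share. In CD62Llo relative to CD62Lhi, Tab2 and Nfkb1, a kinase adaptor and an NF-kB subunit, rose in both genotypes, by 0.22 and 0.16 in KO and by 0.39 and 0.27 in HET, and Ikbkb, the NF-kB activating kinase, fell by 0.23 in KO and by 0.29 in HET, where 4.26% (KO) and 8.88% (HET) of all genes fell. Irak2 fell by 0.24 in KO cells, and Irak4 rose by 0.25 in HET cells. These counts, 4 called in each genotype, went down to between 0 and 2 in KO cells when any 1 KO library was left out and to 1 in HET cells without HET CD62Lhi replicate 1, and were 7 in each genotype with the replicate number as a block. Higher calls were 2 in KO and 3 in HET cells, against 11.9% (KO) and 18.8% (HET) of all genes, so the higher calls were near the background.

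Genes known from ST2+ tissue Tregs were mostly higher in CD62Llo cells. Of 15 listed, 13 were tested: 9 rose in CD62Llo relative to CD62Lhi in KO cells, against 11.9% of all genes (median of the tested 0.99, against 0.05), and 12 in HET cells, against 18.8% (1.78, against 0.07). Between KO and HET CD62Llo, 7 of the 13 fell and none rose, against 3.25% of all genes that fell (median -0.80, against -0.03): Klrg1 by 2.34, Prdm1 by 1.36, Ccr8 by 0.92, Nfil3 by 0.89, Rora by 0.87, Fgl2 by 0.80 and Batf by 0.58. The count was 3 without HET CD62Llo replicate 2 or without KO CD62Llo replicate 1, and 2 with only the 6 CD62Llo libraries fitted. Klrg1 reached 1 FPKM in HET CD62Llo libraries only, and Il10 in CD62Llo libraries only, so their directions in these counts are not independent of the filter. Klrg1, an inhibitory receptor of effector Tregs, read 0.0663, 0.12 and 0.826 FPKM in KO CD62Llo against 4.89, 3.01 and 10.9 in HET CD62Llo, with no overlap. Gata3, a transcription factor known to act on Il1rl1, averaged 16.8 ± 0.848 FPKM in KO CD62Llo and 21.7 ± 2.41 in HET CD62Llo (SD, n = 3 each), a difference of -0.35 that missed the threshold (adjusted p = 0.0722, limma).

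Genes of type 1 and IL-18-responsive cells were tested for 6 of 7. In CD62Llo relative to CD62Lhi, 4 rose in KO cells, against 11.9% of all genes, and 6 in HET cells, against 18.8% (medians 0.93 in KO and 1.36 in HET, against 0.05 and 0.07 for all genes). Ifng reached 1 FPKM in CD62Llo libraries only and entered the test through them. The KO count was 2 under a filter of 5 FPKM. Between KO and HET CD62Llo 3 fell, against 3.25% of all genes (median -0.54, against -0.03), namely Cxcr3, a chemokine receptor of type 1 cells (-1.35), Il12rb1, an IL-12 receptor chain (-0.87), and Runx3 (-0.49). Cxcr3 read 15.1, 22.5 and 14.1 FPKM in KO CD62Llo against 52.8, 44.9 and 36.9 in HET CD62Llo.

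Genes of IL-1- and IL-17-responsive cells were tested for 4 of 7. In CD62Llo relative to CD62Lhi, Il23r, Ccr6 and Ahr rose and Il6ra fell in both genotypes, where 11.9% (KO) and 18.8% (HET) of all genes rose and 4.26% (KO) and 8.88% (HET) fell. The medians of the tested were 1.08 in KO and 1.61 in HET cells, against 0.05 and 0.07 for all genes, and Il23r reached 1 FPKM in CD62Llo libraries only and entered the test through them. Between KO and HET CD62Llo, Ccr6, a chemokine receptor gene, fell by 0.89 and Ahr, which encodes a ligand-activated transcription factor, by 0.67, where 3.25% of all genes fell (median of the tested -0.60, against -0.03). Both calls were lost without HET CD62Llo replicate 2 or without KO CD62Llo replicate 1, and the count was 1 without HET CD62Llo replicate 3 or without KO CD62Llo replicate 3. Ccr6 read 26.1, 23.7 and 24.1 FPKM in KO CD62Llo against 43.4, 42.5 and 54.0 in HET CD62Llo, with no overlap.

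**Figure D5:**
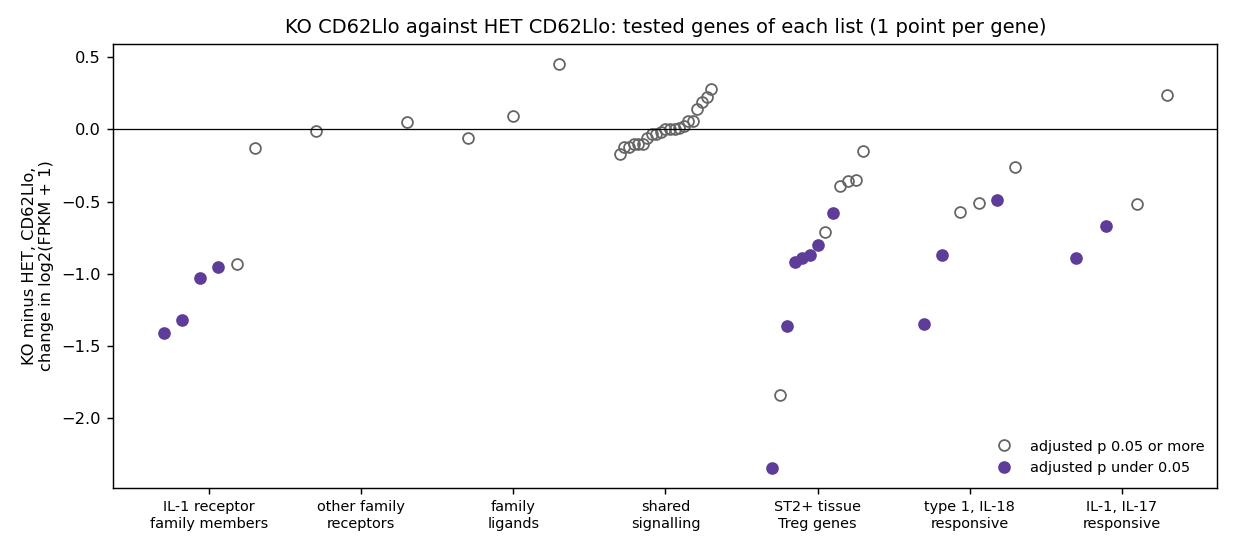
KO minus HET difference in log2(FPKM + 1) in CD62Llo cells, with 1 point per tested gene of each list; filled points have an adjusted p under 0.05 in limma. Filled points are seen for 4 of 6 receptor genes and 7 of 13 genes known from ST2+ tissue Tregs. They are also seen for 3 of 6 type 1 genes and 2 of 4 IL-1 and IL-17 genes. None is filled among 2 other receptors, 3 ligands and antagonists and 21 shared signalling genes. Of all genes tested 3.25% fell, so 0 calls in these lists is near that share. Il1r1 and Klrg1 passed the filter through HET CD62Llo alone.

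Patterns most like each receptor were sought among 7739 genes with a mean of at least 5 FPKM, as the root mean square difference in log2(FPKM + 1) over the 11 libraries after centring each gene; the libraries share groups, so this is a description. Among the 3 genes closest to Il1r2 were Rnase4 and Sccpdh (0.29 each, against a spread of 1.66 for Il1r2 around its own mean). Closest to Il18r1 was Il12rb1 (0.14, own spread 0.69), and closest to Il18rap were Fam129a and Gpr155 (0.22 each, own spread 0.80). Il1r1 was closest to Rora and Tnfrsf1b (0.23 each, own spread 0.81). For Il1rl1 the closest gene, Plcb3, was still 0.32 away against an own spread of 0.52, and the flat Il1rap was closest to Psmb7 (0.04, own spread 0.10). Among the 6, the IL-18 receptor chains were closest to each other (0.20), and Il1r2 and Il1rap were farthest apart (1.60).

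Markers of other cells that use these receptors, or could enter the sort, were summed in each library. Summed over 9 myeloid and neutrophil markers, levels were 30.1 to 242 FPKM in KO CD62Llo, 11.7 to 16.4 in KO CD62Lhi, 44.7 to 91.3 in HET CD62Llo and 11.8 to 21.0 in HET CD62Lhi, mostly Lyz2. Lyz2 read 124, 219 and 25.6 FPKM in KO CD62Llo against 75.2, 50.8 and 40.1 in HET CD62Llo. Alone of the 3 myeloid markers tested, Lyz2 rose in CD62Llo relative to CD62Lhi. The difference was 3.17 in KO (adjusted p = 0.00833, limma) and 2.22 in HET cells (adjusted p = 0.0423), where 11.9% (KO) and 18.8% (HET) of all genes rose. The neutrophil markers S100a8, S100a9 and Mpo were at 0.818 FPKM or less in every library. The sum over 7 mast cell and basophil markers (cells known for ST2) was 0.95 to 1.26 FPKM in KO CD62Llo, 0.756 to 1.42 in KO CD62Lhi, 0.994 to 1.57 in HET CD62Llo and 1.23 to 1.5 in HET CD62Lhi, with no marker tested. NK markers summed to 3.72 to 4.99 FPKM in KO CD62Llo and 3.63 to 5.30 in HET CD62Llo, against 5.90 to 8.78 in KO CD62Lhi and 5.74 to 9.14 in HET CD62Lhi. Of the 3 tested NK markers, Prf1 fell in CD62Llo cells (by 1.10 in KO and by 1.59 in HET), and Klrb1c, which reached 1 FPKM in CD62Llo libraries only, rose (0.85 in KO and 1.49 in HET). CD8 T cell markers (Cd8a and Cd8b1) summed to 11.2 to 17.2 FPKM in KO CD62Llo, 28.7 to 34.9 in KO CD62Lhi, 10.7 to 15 in HET CD62Llo and 37.7 to 42.2 in HET CD62Lhi, and 6 B cell markers summed to 23.9 to 58.7 FPKM in KO CD62Llo, 72.1 to 123 in KO CD62Lhi, 17.9 to 29.7 in HET CD62Llo and 74.5 to 90.8 in HET CD62Lhi. Of these lists and of 8 stroma and endothelium markers, only Pecam1, which T cells also express, was called between KO and HET CD62Llo, where it was higher by 0.43. The markers tested were 3 myeloid, 3 NK, 2 CD8 T cell, 6 B cell and 1 of stroma and endothelium. Of all 11431 genes tested, 526 were called in that comparison, so 1 call among these markers is near the background. The part of these markers in the receptor differences was not tested.

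Within KO CD62Llo, replicate 3 had the highest Il1r2, Il1r1, Il1rl1, Il18r1 and Il18rap. The 4 calls between KO and HET CD62Llo were 3 without that library, with Il1r1 lost. The same count and loss were seen without KO CD62Llo replicate 1 or 2 or without HET CD62Llo replicate 2.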

How the data were processed

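FPKM per gene of Treg libraries (poly(A)-selected, single reads of 50 bases) were deposited by the authors with lower and upper interval bounds, per the file headers. Per the submitters' processing notes, CASAVA 1.8.2, FastQC, TopHat and Cufflinks 2.1.1 were used with mm10; their settings are not stated there. Read counts were not used here, so the depth is an estimate from interval widths (entries of 5 to 50 FPKM, bounds taken as 2 SD to each side), and no count model was fitted. Each of the 6 genes has a single entry among 23846.

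The 11 libraries were fitted together with limma 3.58.1 in R 4.3.3 on log2(FPKM + 1) as 4 group means, with a trended empirical Bayes variance and Benjamini-Hochberg adjustment over all 11431 genes at 1 FPKM or more in at least 2 libraries; calls are at 0.05. The fit was tested on simulated data. Chain ratios used exact permutation tests (scipy 1.17.1). Promoters come from RefSeq (GRCm38.p6) and gene positions from GENCODE vM21; all 6 genes matched both.

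Replicate numbers recur across groups, with no litter or day named in the labels. Same-numbered KO and HET CD62Llo libraries deviated from their group means with r of 0.165, 0.153 and 0.148, against 0.084 or less for different numbers. The main fit did not pair libraries, and the replicate number entered only as a block in an alternative. The members and lists were chosen with earlier results of these data known. Some genes are not reported here. All 6 members are named, from the lists a selection of the genes called in some comparison is named, chosen with their values known, and Il1rl2, Sigirr, Il18bp, Il33, Gata3 and some cell type markers are named beside them. Alternatives were other pseudocounts (0.1, 0.5), no filter or one of 5 FPKM, quantile normalization, median centring, a replicate block, each comparison's own libraries, and each library left out.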

Additional observations from a re-analysis of the deposited data

How the results depend on the processing

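The count of receptor genes called stayed within 3 to 4 between fractions of KO cells, 3 to 4 between fractions of HET cells, 3 to 5 between KO and HET CD62Llo, and at 0 in CD62Lhi cells and for the difference of differences, over 72 alternatives. Il1r2, Il18r1 and Il18rap kept their calls in all of these between fractions and between KO and HET CD62Llo, while Il1r1 lost its call in 6 alternatives between KO and HET CD62Llo (among them a pseudocount of 0.1, -1.56 with adjusted p = 0.0504, and the CD62Llo libraries alone, adjusted p = 0.15) and in 7 between KO fractions (among them quantile normalization, 0.75 with adjusted p = 0.0649). With 5 FPKM as the filter Il1r1, Il1rl1 and Il1rap are not tested, so the count of 3 there is all of the genes left. With a pseudocount of 0.1 the fraction difference of Il1r1 grows to 2.93 in KO and 3.88 in HET cells.

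Differences near 0 changed sign. Il1rl1 between KO fractions was -0.17 after quantile normalization, -0.03 after median centring and -0.16 to 0.27 with 1 library left out. Il1rap between KO fractions was -0.07, -0.04 and -0.03 to 0.09 under the same settings, between HET fractions 0.00 after quantile normalization, and between KO and HET CD62Lhi 0.01 after median centring and -0.07 to 0.07 with 1 library left out.

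Over all genes, calls with 1 library left out ranged from 1187 to 1974 between KO fractions (1852 with all), 1916 to 3137 between HET fractions (3163), 182 to 610 between KO and HET CD62Llo (526), 0 to 5 in CD62Lhi (0) and 1 to 5 for the difference of differences (1). With the comparison's own libraries alone there were 109 in CD62Llo and 5 in CD62Lhi, and with no filter 4 for the difference of differences; the causes were not tested. Leaving out a HET CD62Lhi library leaves 1, which is then assumed to vary like the other groups.

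With the replicate number as a block, 755 genes were called between KO and HET CD62Llo, and Il1rl1 passed (-0.93, adjusted p = 0.0231); it changed no other call among the 6 genes in the 5 comparisons. Between KO fractions same-numbered libraries had r of 0.131, 0.068 and 0.178, while CD62Lhi replicate 2 with CD62Llo replicate 1 had 0.086. The block gave 2287 calls there. Depth limits Il1r1 in CD62Lhi cells, at 0.135 FPKM or less.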

Other observations

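The authors' deposited table of pooled group values, with no spread, gave Il1r2 at 16.2 FPKM in KO CD62Llo, 1.85 in KO CD62Lhi, 45.0 in HET CD62Llo and 2.89 in HET CD62Lhi. In the authors' deposited table Il18r1 stood at 31.3 FPKM in KO CD62Llo, 19.1 in KO CD62Lhi, 60.6 in HET CD62Llo and 20.6 in HET CD62Lhi, and Il1rl1 at 1.29 FPKM in KO CD62Llo, 1.34 in KO CD62Lhi, 3.66 in HET CD62Llo and 2.24 in HET CD62Lhi. Which libraries the pooled values rest on is not given in the sources used here.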
